A study of Sus scrofa with 4 samples.

Results

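The comparison described here is that of the medial with the lateral meniscus within the red zone, in single-cell RNA sequencing of pig (Sus scrofa) knee meniscus. It consists of the 2 red zone libraries, 1 from the lateral and 1 from the medial meniscus, taken whole, with barcodes kept where they held 500 or more UMIs (unique molecular identifiers, which count captured RNA molecules) and 200 or more genes, and where no more than 20% of those UMIs were mitochondrial (13 genes). This left 5701 lateral and 6803 medial cells, or 12504 of the 27693 cells of the 4 libraries, the other 15189 being from the white zone libraries, 1 lateral and 1 medial. The tissue carried no treatment, was freed of synovium, divided into zones and digested with pronase and then collagenase, and the labels give no strain, age, genotype or number of animals. With 1 library a side there is no spread between replicates. No p-value is given, every interval covers counting error only, and a difference between these libraries cannot be told apart from one between animals, dissections or digests.

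The meniscus is the fibrocartilage wedge between femur and tibia. Its outer rim, the red zone, carries blood vessels, lymphatics and nerves in a fibrous tissue rich in type I collagen, while the inner white zone lacks vessels and is closer to cartilage. The medial meniscus is attached more firmly to the capsule than the lateral one. Cells of the rim include fibroblasts, among them the PI16-positive adventitial fibroblasts that lie around vessels in many organs, fibrochondrocytes that lay down matrix such as COMP and CILP, and endothelial, mural and immune cells.

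The libraries were alike in depth. The lateral library held 5753 barcodes and the medial 6840, of which 38 and 17 had under 200 genes and 15 and 21 exceeded the mitochondrial limit. The kept cells held 9612276 lateral and 11846787 medial UMIs. The median lateral cell had 1473 UMIs, 722 genes and a mitochondrial share of 2.23%, and the median medial cell 1493 UMIs, 733 genes and 2.53%. The count of barcodes shared was 11 between the red libraries. Scrublet, a doublet caller, called 112 doublets in the lateral and 0 in the medial library, so it did not work on the latter and no doublets were removed. As a check of the zone labels, the endothelial adhesion gene PECAM1 had 375 CPM (a gene's UMIs scaled to a common library total) in the lateral and 390 CPM in the medial red library. In the white zone it had 64.3 CPM laterally and 128 CPM medially. EIF1AY and KDM5D, both Y-linked, had 0 UMIs in both red libraries.

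Most genes were at a similar level on both sides. Of 5581 genes with 20 or more CPM in either red library, 95.1% lay within 1.5-fold, and the median log2 ratio of medial over lateral was 0.02. Across these genes, which are not independent replicates, the Pearson correlation of log2 CPM was 0.978. A level at least 2-fold higher in the medial library was seen for 22 genes (0.394% of those compared), and one at least 2-fold higher in the lateral library for 39 (0.699%), 11 of which have no symbol. Together these were 61 genes, or 1.09%. At 4-fold or more there were 3 medial genes, SFRP4, COL6A6 and PI16, and 9 lateral ones. The threshold was met narrowly by LGALS1 (2.02-fold higher in medial) and PPP4C (2.04-fold higher in lateral) and missed by SFRP2 (1.95-fold higher in medial) and COMP (1.997-fold higher in lateral).

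**Figure D1:**
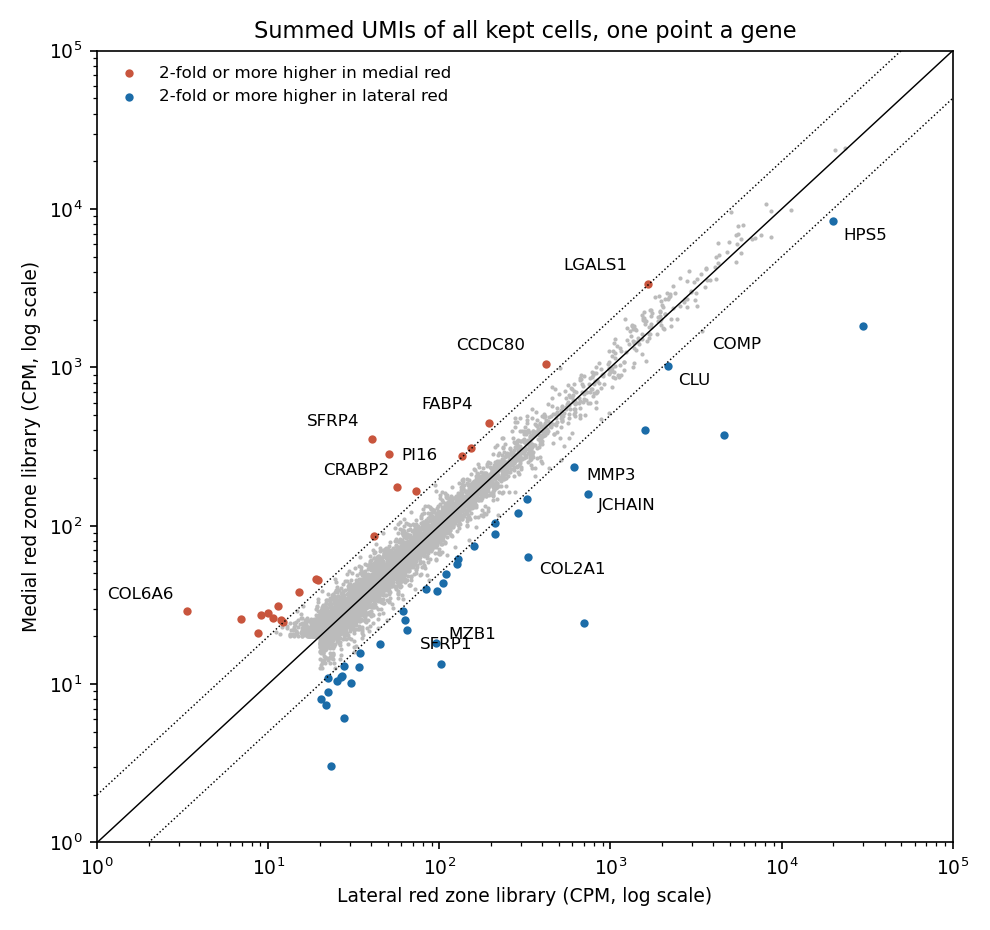
Each point is 1 of 5581 genes, with its CPM in the lateral red library on the x axis and in the medial red library on the y axis, both on log scales; the solid line marks equal levels and the dotted lines a 2-fold ratio. The 22 red genes above the band include SFRP4, COL6A6 and PI16, and the 39 blue genes below it include COL2A1, JCHAIN and MMP3.

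The genes with the largest medial excess belonged to fibroblasts. SFRP4, a secreted antagonist of WNT ligands, had 40.6 CPM in the lateral and 355 CPM in the medial red library, 8.75-fold higher (exact 95% counting interval 7.88 to 9.73). PI16, a secreted peptidase inhibitor that marks adventitial fibroblasts, had 51.0 and 285 CPM, 5.59-fold higher (5.08 to 6.15). COL6A6, a chain of the beaded-filament collagen VI, had 3.33 and 28.9 CPM, 8.67-fold higher in medial (6.03 to 12.9). It passed the floor of 20 CPM only through the medial library. These 3 genes were picked for the largest ratios, so intervals that lie apart follow from that choice and add no support. The shares of positive cells come from the same counts. With every cell thinned to 500 UMIs, which left out no cell, SFRP4 was detected in 1.72% of lateral and 7.07% of medial cells, and PI16 in 1.70% and 8.28%. Without thinning the shares were 4.30% and 13.9% for SFRP4 and 4.09% and 16.5% for PI16. In RefSeq's annotation of Sscrofa11.1, the build of the deposited counts, SFRP4 lies at chr9:108404314-108414335 and PI16 at chr7:32600952-32613505.

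Some other adventitial genes pointed the same way with smaller ratios. Over the 10 adventitial fibroblast genes compared, SFRP4 and PI16 among them, the median log2 ratio was 0.76 against 0.02 for all genes. At least 2-fold higher were 3 of the 10 in medial (0.394% of all genes) and 0 in lateral (0.699%). As SFRP4 and PI16 were picked above for their ratios, this median and this count add no support from other genes. The third of the 3 medial genes was MFAP5, a microfibril protein, at 152 CPM in lateral and 309 CPM in medial. SFRP2, another secreted WNT antagonist, had 507 and 989 CPM, and CD34, a sialomucin of stromal and endothelial progenitors, 44.8 and 72.0 CPM. SEMA3C, IGFBP6 and TNXB were close to equal, and DPT, which encodes the matrix protein dermatopontin, went the other way with 177 CPM in lateral and 125 CPM in medial.

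Among the 9 WNT pathway genes compared, 2 were at least 2-fold higher in medial (0.394% of all genes) and 1 in lateral (0.699%). All 3 encode secreted inhibitors. The medial genes were SFRP4 and DKK2, which binds the LRP co-receptors, at 15.1 CPM in lateral and 37.9 CPM in medial. DKK2 passed the floor of 20 CPM only through the medial library. The lateral gene was SFRP1, at 64.6 CPM in lateral and 21.9 CPM in medial, 2.94-fold higher in lateral (2.54 to 3.42). WIF1, which binds WNT ligands directly, was below the floor of 20 CPM in both, with 13.6 and 4.22 CPM, 3.23-fold higher in lateral (2.31 to 4.57). The target gene AXIN2 had 23.0 and 18.4 CPM, and the receptor FZD1 0.8 and 0.9 CPM. The median log2 ratio of the 9 genes was -0.32.

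Several further genes were higher in the medial library. CRABP2, which carries retinoic acid to the nucleus, had 56.8 CPM in lateral and 175 CPM in medial, and was the only one of 9 retinoic acid genes past 2-fold (list median log2 ratio 0.43). CCDC80, a secreted matrix protein, had 421 and 1049 CPM and was detected in 14.9% and 26.5% of thinned cells. The galectin LGALS1 had 1657 and 3354 CPM. TNN, which encodes tenascin-N, had 8.74 and 21.1 CPM, and the fatty acid chaperone FABP4, abundant in capillary endothelium, 196 and 445 CPM. TOP2A, a topoisomerase of dividing cells, had 9.99 and 28.2 CPM. TNN and TOP2A passed the floor of 20 CPM only through the medial library. Of 2 cycling cell markers compared, TOP2A alone was past 2-fold in medial (0.394% of all genes), with 0 in lateral (0.699%). The other, PCNA, had a log2 ratio of -0.21, from 769 lateral and 820 medial UMIs. LGALS1 was singled out after its value was seen.

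**Figure D2:**
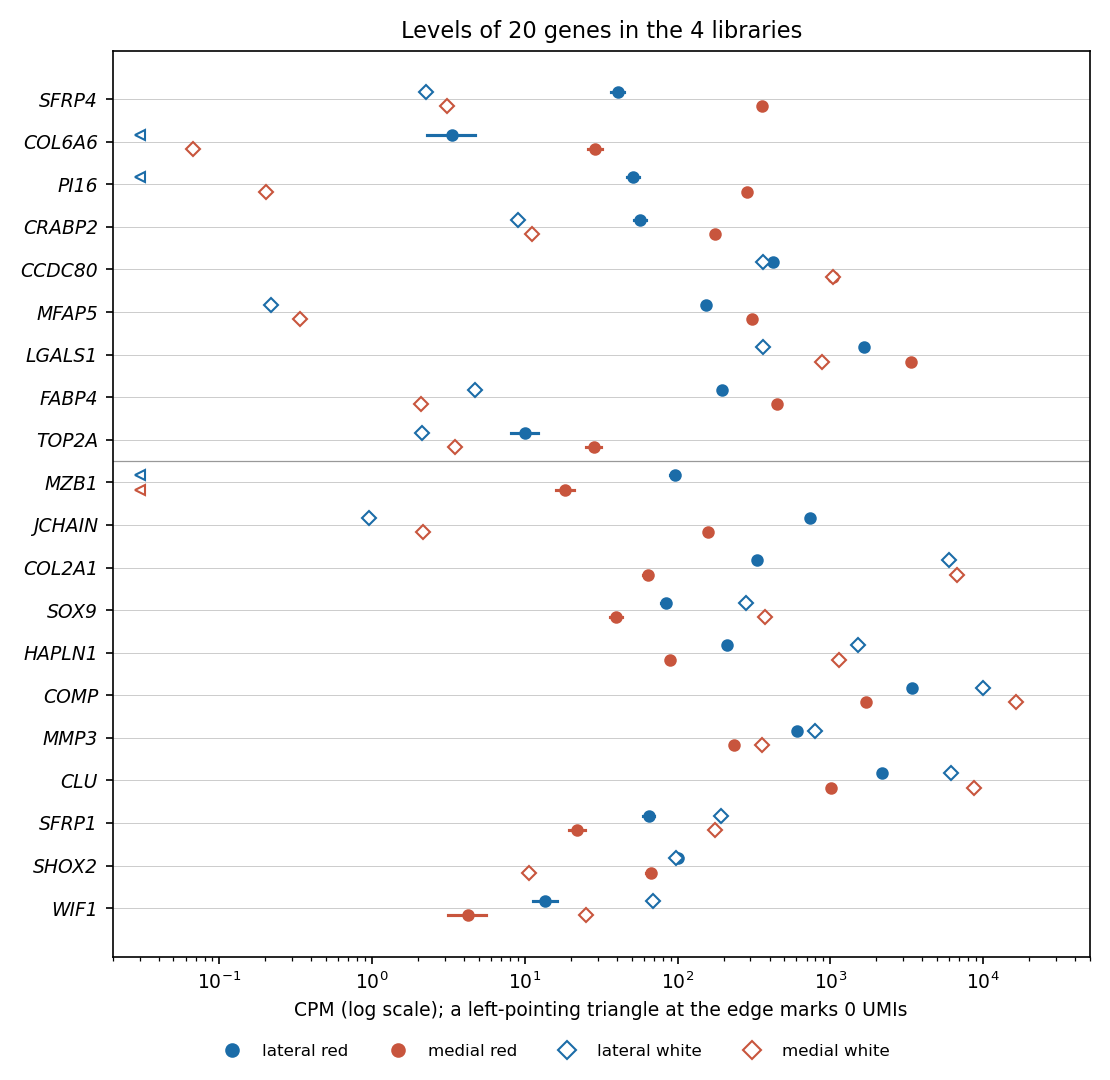
CPM on a log scale of 20 genes in the lateral (blue) and medial (red) libraries of the red zone (filled circles, with exact 95% Poisson intervals) and of the white zone (open diamonds); triangles mark 0 UMIs. SFRP4 stands at 40.6 and 355 CPM in the red libraries and at 2.26 and 3.09 CPM in the white ones, whereas CCDC80 and MMP3 differ between the sides in both zones.

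The medial excess was examined within fibroblasts. Cells were clustered over both red libraries and classes named from marker lists. The fibroblast-like class held 1236 lateral and 2724 medial cells in a cluster led by SFRP4, C1QTNF3, CRABP2 and POSTN (377 and 1399 cells, 4.28% of genes past 2-fold) and one led by CXCL14, LUM, APOE and PDGFRA (859 and 1325 cells, 3.19%). Since SFRP4 and CRABP2 helped to build the former cluster, its size is no independent result. Within the CXCL14-led cluster PI16 had 152 CPM in lateral and 736 CPM in medial and was detected in 4.54% and 18.9% of its thinned cells. SFRP4 had 70.2 and 295 CPM there, and COL6A6 13.5 and 60.3 CPM. MFAP5 did not follow, with 615 CPM in lateral and 613 CPM in medial. In fibroblast-like cells as a whole, where 2.35% of genes were past 2-fold, SFRP4 had 111 and 787 CPM, with 4.53% and 15.6% of thinned cells positive, and the iron-binding lipocalin LCN2 had 4.83 and 42.2 CPM. As a background, SFRP4 was detected in 0.194% of lateral and 0.829% of medial thinned endothelial-like cells, which are not known to express it, and PI16 in 0.583% and 0.922%. In summed counts this background was also higher in medial, at 6.98 and 40.6 CPM for SFRP4 and 14.7 and 60.4 CPM for PI16. PI16 had 1 lateral and 39 medial UMIs in myeloid-like cells, and 0 and 42 in mural-like cells. The part of doublets or free RNA in the fibroblast values was not tested.

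With both libraries given the same mix of clusters, the medial to lateral ratio was 4.77 for SFRP4, 3.06 for PI16 and 4.89 for COL6A6, but 1.52 for CRABP2, 1.21 for MFAP5 and 0.983 for TNN. Those clusters, at resolution 0.5, were built from the same genes. At resolution 1.0 a fibroblast-like cluster with PI16 among its leading genes held 136 lateral and 478 medial cells. These were 2.39% of lateral and 7.03% of medial cells. Giving both libraries the same mix of the coarser clusters does not even out kinds of cells within a cluster. Over all cells, more cells of a type and more RNA per cell cannot be told apart.

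Some plasma cell genes were among those with the largest lateral ratios. Of 3 B or plasma cell markers compared, 2 were at least 2-fold higher in lateral (0.699% of all genes) and 0 in medial (0.394%). The other marker, CD79A, went the other way, with 52.3 CPM in lateral and 58.8 CPM in medial. MZB1, a chaperone of antibody assembly, had 95.8 CPM in the lateral and 18.2 CPM in the medial red library, 5.26-fold higher in lateral (4.53 to 6.12), and 0 UMIs in both white libraries. JCHAIN, which joins IgA and IgM units, had 736 and 159 CPM, and CD69, an activation marker of lymphocytes, 27.7 and 6.08 CPM. MZB1 and CD69 passed the floor of 20 CPM only through the lateral library. MZB1 was detected in 1.86% of lateral and 0.206% of medial thinned cells. The B or plasma cell-like class, which these genes helped to build, held 146 lateral and 18 medial cells. Clustered without genes that differ between the sides, B, plasma, T and NK cells fell together, at 5.05% of lateral (4.50 to 5.65) and 2.63% of medial cells (2.26 to 3.04). Within the class, which rests on 18 medial cells, the order differed between genes. MZB1 had 1786 CPM in lateral and 3078 CPM in medial and JCHAIN 13914 and 28695 CPM. CD69 had 412 and 173 CPM, and SLAMF7, a surface receptor of plasma cells, 858 and 644 CPM. JCHAIN was detected in 84 of the 146 lateral and 16 of the 18 medial cells.

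A single feature without a symbol, ENSSSCG00000038719, took 2.98% of all lateral and 0.183% of all medial UMIs. B or plasma cell-like cells held 97.3% of its lateral and 95.8% of its medial UMIs, at 1908 and 1154 UMIs per cell of that class. Outside that class it was detected in 47.9% of lateral and 11.0% of medial cells, at 855 and 77.3 CPM, and the part of free RNA in those values was not tested. ENSSSCG00000036983, with 696 CPM in lateral and 24.5 CPM in medial, was likewise 96.1% and 88.6% in that class. With these cells left out, 17 genes were at least 2-fold higher in medial and 41 in lateral.

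Cartilage genes formed the next lateral group. Of 5 chondrocyte genes compared 3 were at least 2-fold higher in lateral (0.699% of all genes) and 0 in medial (0.394%). Their median log2 ratio was -1.08. The wider cartilage matrix list shares most of these genes and counted 3 of 6 in lateral. COL2A1, the main collagen of hyaline cartilage, had 332 CPM in lateral and 63.6 CPM in medial, 5.22-fold higher in lateral (4.82 to 5.66). SOX9, the transcription factor that sets the chondrocyte programme, had 83.6 and 39.7 CPM, and HAPLN1, which links aggrecan to hyaluronan, 211 and 88.8 CPM. ACAN, aggrecan itself, stood closer, with 238 CPM in lateral and 198 CPM in medial. SCRG1, a gene of cartilage cells, had 96.3 and 38.6 CPM.

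COL2A1 came from few cells. The chondrocyte-like cluster, 113 lateral and 64 medial cells, held 3127 of the 3188 lateral and 621 of the 753 medial UMIs, and within it COL2A1 had 13062 CPM in lateral and 6931 CPM in medial, where 1 cell held 26.7% of the UMIs. It was detected in 54.9% and 51.6% of the thinned cells of that cluster. The mean of single-cell CPM, which gives deep cells no extra weight, set the COL2A1 ratio of medial over lateral at 0.331 instead of 0.192. Within the class HAPLN1 had 1537 and 1551 CPM, SOX9 309 and 346 CPM, and ACAN 1951 and 2199 CPM, so these 3 stood closer than over all cells. WIF1 had 56 UMIs in lateral and 2 in medial chondrocyte-like cells. In so small a class 37.4% of all genes compared were past 2-fold.

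COMP, the pentameric thrombospondin of fibrocartilage, was higher in lateral in several classes at once. It had 3410 CPM in lateral and 1707 CPM in medial over all cells, 7187 and 4110 CPM in fibrochondrocyte-like cells, 3054 and 1080 CPM in the CXCL14-led cluster and 6522 and 3186 CPM in the SFRP4-led cluster. In chondrocyte-like cells it had 17473 and 16374 CPM. Of 8 fibrochondrocyte genes 0 were past 2-fold, and their median log2 ratio was -0.39. CILP2, an intermediate-layer cartilage protein, had 516 CPM in lateral and 261 CPM in medial over all cells but 1548 and 1435 CPM within fibrochondrocyte-like cells.

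MMP3, the matrix protease stromelysin-1, had 608 CPM in lateral and 234 CPM in medial, 2.60-fold higher in lateral (2.49 to 2.73), and was detected in 14.8% and 7.23% of thinned cells. Among the classes plotted the difference was widest in fibroblast-like cells, with 1219 CPM in lateral and 215 CPM in medial, and 29.3% and 7.49% of thinned cells positive. In the SFRP4-led cluster it had 764 and 162 CPM and in the CXCL14-led cluster 1432 and 279 CPM. Fibrochondrocyte-like cells had 1041 and 888 CPM and chondrocyte-like cells 1587 and 1574 CPM. A difference between the classes was not tested. The gelatinase MMP2 went the other way, with 453 CPM in lateral and 752 CPM in medial.

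Fibroblast-like cells of the lateral library also had more of several secreted genes. The class pools its 2 clusters in unequal parts, so values of each are given too. CLU, the extracellular chaperone clusterin, had 5697 CPM in lateral and 1633 CPM in medial, and was detected in 76.7% and 43.0% of thinned cells. It had 1958 and 718 CPM in the SFRP4-led and 7443 and 2752 CPM in the CXCL14-led cluster. IL6, the cytokine, had 347 and 82.0 CPM in the class, and 697 of its 719 lateral and 372 of its 396 medial UMIs lay in the CXCL14-led cluster, where it had 494 and 171 CPM. In that cluster 14.7% of lateral and 7.32% of medial thinned cells were positive for IL6. SFRP1 had 99.1 and 33.7 CPM in the class and 129.7 and 42.8 CPM in the CXCL14-led cluster, but 33.4 and 26.3 CPM in the SFRP4-led one. The median log2 ratio of 13 NF-kappaB target genes within this class was -0.70, with 1 of them past 2-fold in lateral and 0 in medial, against -0.05 for all genes compared in the class. Within the clusters the list's median was -0.38 over 10 genes (SFRP4-led) and -0.41 over 13 (CXCL14-led), nearer to 0 than in the pooled class. Over all cells the same list had 0 of 13 genes past 2-fold and a median of -0.23.

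BMP2, a bone morphogenetic ligand, had 25.1 CPM in lateral and 10.47 CPM in medial, and BAMBI, a decoy receptor of the same pathway, 61.3 and 28.8 CPM. They were the only 2 of 20 TGF-beta and BMP genes past 2-fold (1.09% of all genes), and the list's median log2 ratio was 0.07. BMP2 passed the floor of 20 CPM only through the lateral library. Reads assigned to HPS5, a gene of lysosome-related organelles, gave 20052 CPM in lateral and 8399 CPM in medial. It is named here after its value was seen. RefSeq places it on Sscrofa11.1 at chr2:40906785-40938847, next to the pseudogene SAA1P, and whether the reads come from HPS5 itself was not tested. Within fibrochondrocyte-like cells it had 65335 and 54137 CPM.

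**Figure D3:**
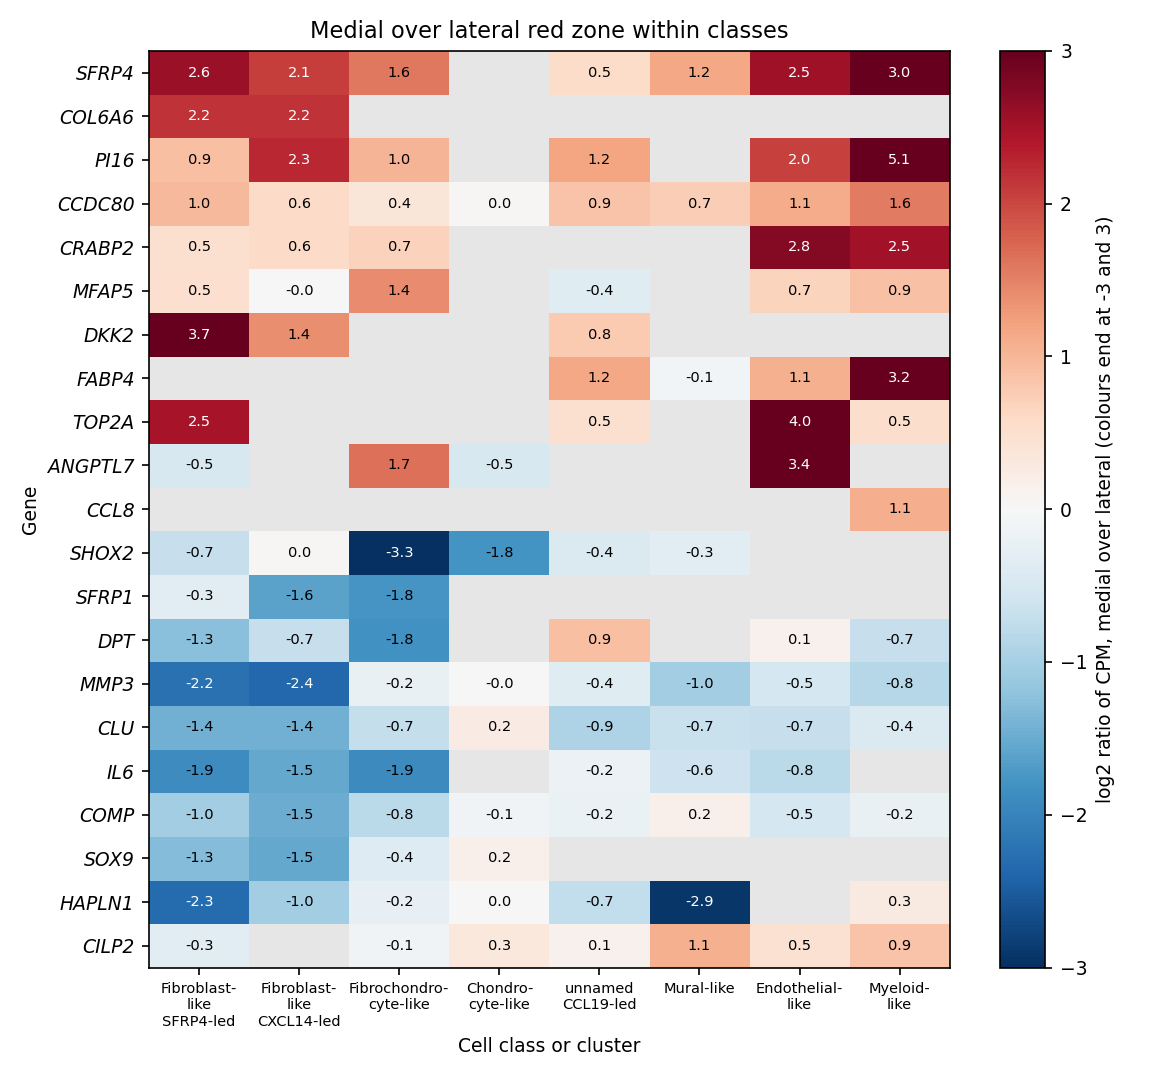
Log2 ratio of CPM, medial over lateral red zone, for 21 genes (rows) within 8 cell classes or clusters (columns); red is higher in medial, blue higher in lateral, and grey marks fewer than 30 UMIs in both libraries together 0 in 1 of them, or a level under 20 CPM in both. MMP3 is lowest in the fibroblast-like columns and near 0 in chondrocyte-like cells, and SHOX2 is lowest in fibrochondrocyte-like cells, followed by chondrocyte-like cells.

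The make-up of the libraries was compared with clusters built without the 272 genes that differed 1.5-fold or more between the sides. Fibrochondrocyte-like cells, a cluster that now also held the COL2A1 cells, were then 10.4% of lateral (9.64 to 11.2) and 4.53% of medial cells (4.05 to 5.05), and fibroblast-like cells 15.8% and 20.2%. A cluster without a name, led by CRABP2, C1QTNF3 and SFRP4 although these were left out of the clustering, was 3.93% of lateral (3.44 to 4.47) and 11.0% of medial cells (10.2 to 11.7). Lymphatic endothelial-like cells, which drain tissue fluid, were 17 lateral and 83 medial cells, or 0.298% (0.174 to 0.477) and 1.22% (0.973 to 1.51). Endothelial-like cells were 18.0% and 16.1%, myeloid-like cells 11.6% and 10.3% and mural-like cells, which wrap vessels, 3.98% and 4.91%. The CCL19-led cluster was 13.4% and 9.94%. At resolution 1.0 it was named mural-like too, and the class then turned to 17.3% of lateral and 14.9% of medial cells, a medial to lateral ratio of 0.861, and with all 4 libraries clustered to 0.853. A cluster led by KERA, a tendon marker, was 17.1% of lateral and 18.8% of medial cells. These shares depend on digestion as well as on the tissue, which cannot be told apart here.

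**Figure D4:**
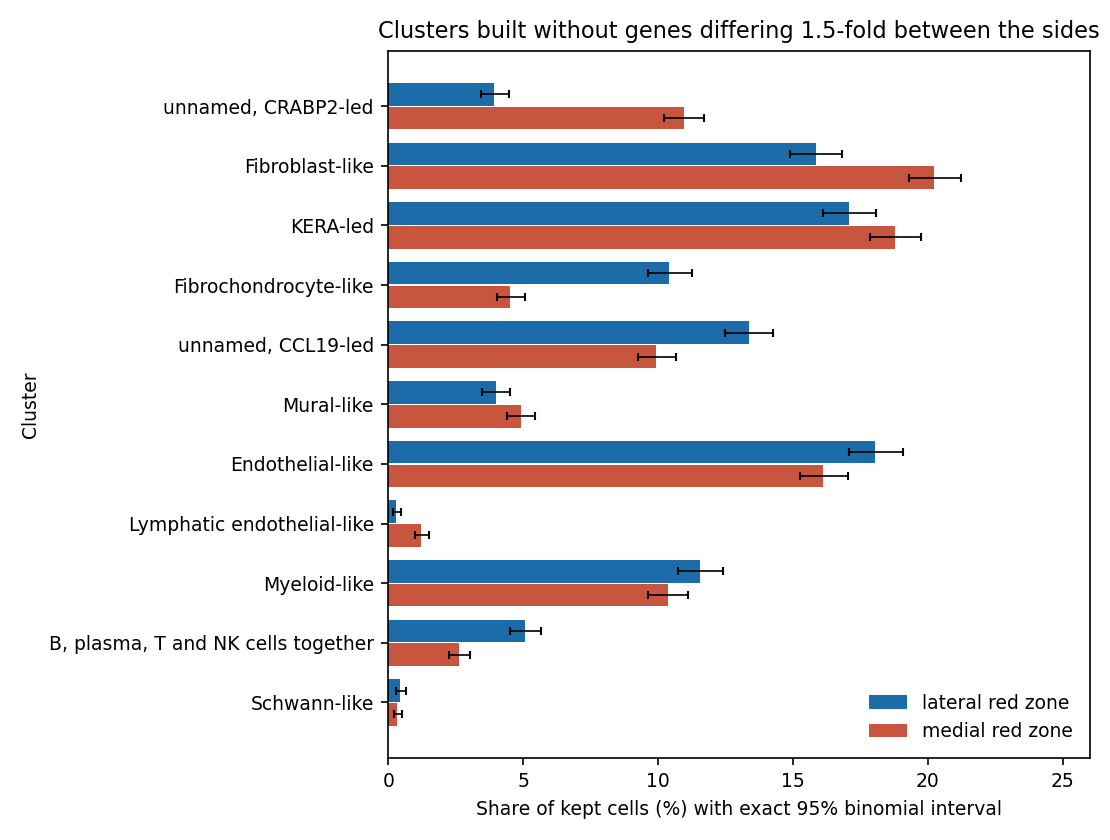
Share of kept cells in each cluster, in percent, for the lateral (blue) and medial (red) red zone libraries, with exact 95% binomial intervals; clusters were built without genes that differed 1.5-fold. The CRABP2-led cluster has 3.93% and 11.0% and fibrochondrocyte-like cells have 10.4% and 4.53%, while endothelial-like and myeloid-like shares lie close together.

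Clustered with all variable genes, fibrochondrocyte-like cells numbered 1342 in lateral and 925 in medial, and 2.06% of the genes compared within them were past 2-fold. The name is not firm: the 10 leading genes held 1 fibrochondrocyte marker, ANGPTL7, and 1 tendon marker, THBS4. At resolution 1.0 a tendon-like cluster of 1492 cells (806 lateral and 686 medial), with ANGPTL7 among its leading genes, stood apart. Another 879 cells (591 lateral and 288 medial) were fibrochondrocyte-like. The values of the class may therefore pool 2 kinds of cells in parts that differ between the sides, which was not tested. SHOX2, a homeobox gene of limb and joint development, had 138 CPM in lateral and 13.7 CPM in medial, from 352 and 21 UMIs. It was detected in 274 of 1342 and 17 of 925 cells, and in 5.59% and 0.757% of thinned cells. Chondrocyte-like cells had the same order, with 192 and 55.8 CPM, from 33 of 113 lateral and 3 of 64 medial cells. In fibroblast-like cells of the CXCL14-led cluster SHOX2 was level, at 125 and 128 CPM, in the SFRP4-led cluster it had 116.9 and 72.6 CPM, in mural-like cells, where 10.1% of genes were past 2-fold, it had 200.1 and 159 CPM, and over all cells 100.4 and 66.7 CPM. Endothelial-like cells, which should lack it, had 13.3 and 14.6 CPM, so medial fibrochondrocyte-like cells were at that background. Of 12 limb patterning genes compared over all cells 0 were past 2-fold, and their median log2 ratio was -0.12.

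Other genes of fibrochondrocyte-like cells differed too. DPT had 240 CPM in lateral and 67.7 CPM in medial, and SFRP1 140 and 41.0 CPM. On the medial side ANGPTL7, a secreted angiopoietin-like protein of tendon and cornea, had 284 CPM in lateral and 900.1 CPM in medial, with 5.51% and 15.8% of thinned cells positive. DLX5, a homeobox gene of skeletal development, had 6 and 34 UMIs (2.36 and 22.1 CPM), and MMP8, a collagenase, 80 and 16 (31.5 and 10.4 CPM). DLX5 was 9.38-fold higher in medial (3.89 to 27.3), about as large a ratio as that of SHOX2, 10.1-fold higher in lateral (6.52 to 16.6). The ratio of POLR1G, 17 against 37 UMIs, turned to 0.890 when all 4 libraries were clustered together.

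Within endothelial-like cells, 1030 in lateral and 1085 in medial, 2.62% of genes were past 2-fold (2.75% in the larger of its 2 clusters) and of the 12 endothelial markers 0 were. Genes of dividing cells led the medial side. Of 4 cycling cell markers compared in the class, 3 were at least 2-fold higher in medial and 0 in lateral. TOP2A had 5 UMIs in lateral and 119 in medial, from 4 and 46 cells, and CENPE, a mitotic kinesin, 2 and 86 UMIs from 2 and 52 cells. In T or NK cell-like cells, a class of low depth with 28.6% of genes past 2-fold, TOP2A was closer, with 25 and 35 UMIs from 17 of 154 and 23 of 153 cells. The medial excess was not confined to endothelial-like cells. In the SFRP4-led cluster PBK, also a gene of dividing cells, had 2 UMIs in lateral and 62 in medial (3.04 and 23.3 CPM). PCLAF had 2 and 68 UMIs there (3.04 and 25.6 CPM). At resolution 1.0 a cycling cell-like cluster held 7 lateral and 47 medial cells. FABP4 had 933.5 CPM in lateral and 1944 CPM in medial endothelial-like cells and was detected in 23.0% and 42.8% of thinned cells, while RGCC, a cell cycle regulator of endothelium, had 616 and 411 CPM. The class was shallower in lateral, at a median of 1103.5 UMIs per cell against 1400 in medial. Markers of other cells moved with it, as 3 of 12 fibroblast markers were at least 2-fold higher in medial and 0 in lateral, and 3 of 5 myeloid markers in lateral and 0 in medial. PI16 had 14.7 and 60.4 CPM in it and ANGPTL7 3.49 and 36.8 CPM. At resolution 1.0 an unnamed cluster led by ACKR1, FABP4, FAM167B and VWF held 49 lateral and 92 medial cells, at a median of 2938 UMIs. Of its cells 83.7% were among the highest Scrublet scores of their library. The part of doublets or free RNA in the endothelial-like values was not tested.

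Myeloid-like cells numbered 657 and 718, and 4.78% of genes were past 2-fold. Among their markers 0 of 12 were past 2-fold. CCL8, a monocyte chemokine, had 876 CPM in lateral and 1851 CPM in medial, with 17.0% and 23.8% of thinned cells positive, and MRC1, the mannose receptor of tissue macrophages, 651 and 383 CPM. C1QA, a complement subunit, had 4580 and 3660 CPM. Genes of other cells moved with the medial side of this class. Of 9 genes of smooth muscle contraction 8 were at least 2-fold higher in medial, as were 6 of 11 fibroblast markers, with MYH11 at 5 UMIs in 4 lateral cells and 34 UMIs in 10 medial cells, and FABP4 at 11 UMIs in 7 and 113 UMIs in 27. The part of doublets or free RNA in these values was not tested.

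The cluster led by CCL19, GPC3 and C7, which met the naming rule for no marker list, held 699 lateral and 646 medial cells, and 2.92% of its genes were past 2-fold. STMN2, a microtubule regulator first known from neurons, was concentrated there, with 330 of its 434 lateral and 161 of its 212 medial UMIs, at 284 CPM in lateral and 138 CPM in medial. Haemoglobin beta, HBB, appeared 7.29-fold higher in medial in this cluster, but 264 of its 294 medial UMIs came from 1 cell. The lateral excess of HBB in endothelial-like cells likewise rested on 1 cell with 119 of 180 UMIs, and that in fibroblast-like cells on 1 with 129 of 181. HBB was detected in 2.62% and 1.47% of thinned endothelial-like cells in lateral and medial.

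Many programmes showed no member past 2-fold over all cells. Since 1.09% of all genes compared were past it, 0 in so short a list is near that share and is no result about the programme. This held for 16 immediate-early genes (median log2 ratio -0.03), 14 heat shock genes (-0.02), 17 interferon response genes (-0.02), 14 chemokines and their receptors (-0.12), 16 fibrillar collagens and processing enzymes (0.14) and 17 genes of smooth muscle and pericytes (-0.11). The collagens themselves stood close, COL1A1 at 20406 CPM in lateral and 23549 CPM in medial and COL3A1 at 8078 and 10712 CPM. ACTA2 had 575 and 509 CPM and MYH11 174 and 190 CPM, and CD3E, of the T cell receptor complex, 8.22 and 7.09 CPM. Of 14 elastic fibre genes 1, MFAP5, was past 2-fold, and of 19 hypoxia and glycolysis genes 1, the mitophagy receptor BNIP3, which was higher in lateral.

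The white zone pair of libraries shares no library with the red pair. Whether it comes from the same menisci or animals is not given in the labels, so it is not read as an independent repeat of the comparison. Among 4248 genes with 20 or more CPM in both zones, 28 (0.659%) were past 2-fold in the red zone and 155 (3.65%) in the white zone. The correlation of the log2 ratios across genes was 0.182 (Pearson) and 0.124 (Spearman), given as a description, and 54.7% had the same sign. Of 6 genes higher in medial in the red zone, 3 were also 2-fold higher in medial in the white zone, LGALS1, C1QTNF3 (singled out after its value was seen) and CCDC80, which is 50% of the red and 2.83% of the 106 white genes. Of 22 lateral genes 5 were shared, PCP4, MMP3, HPS5 and 2 without a symbol, 22.7% of the red and 10.2% of the 49 white genes. None was past 2-fold in opposite directions. With only 0.659% and 3.65% of genes past 2-fold, few such genes could be met, so their absence is not read as agreement. MMP3 had 796 CPM in lateral white and 357 CPM in medial white, and C1QTNF3, an adipokine of the C1q family, 5.47 and 26.2 CPM against 72.9 and 165 CPM in the red libraries.

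SHOX2 also differed between the sides in the white zone, at 98.1 CPM in lateral white and 10.7 CPM in medial white, 9.20-fold higher in lateral. Cartilage genes did not repeat their red zone order. COL2A1 had 5955 CPM in lateral white and 6737 CPM in medial white, SOX9 280 and 371 CPM, and COMP 9960 and 16420 CPM. The genes with the largest medial excess in the red zone were nearly absent from the white zone, PI16 with 0 and 0.201 CPM and SFRP4 with 2.26 and 3.09 CPM, so no side difference could be read there.

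**Figure D5:**
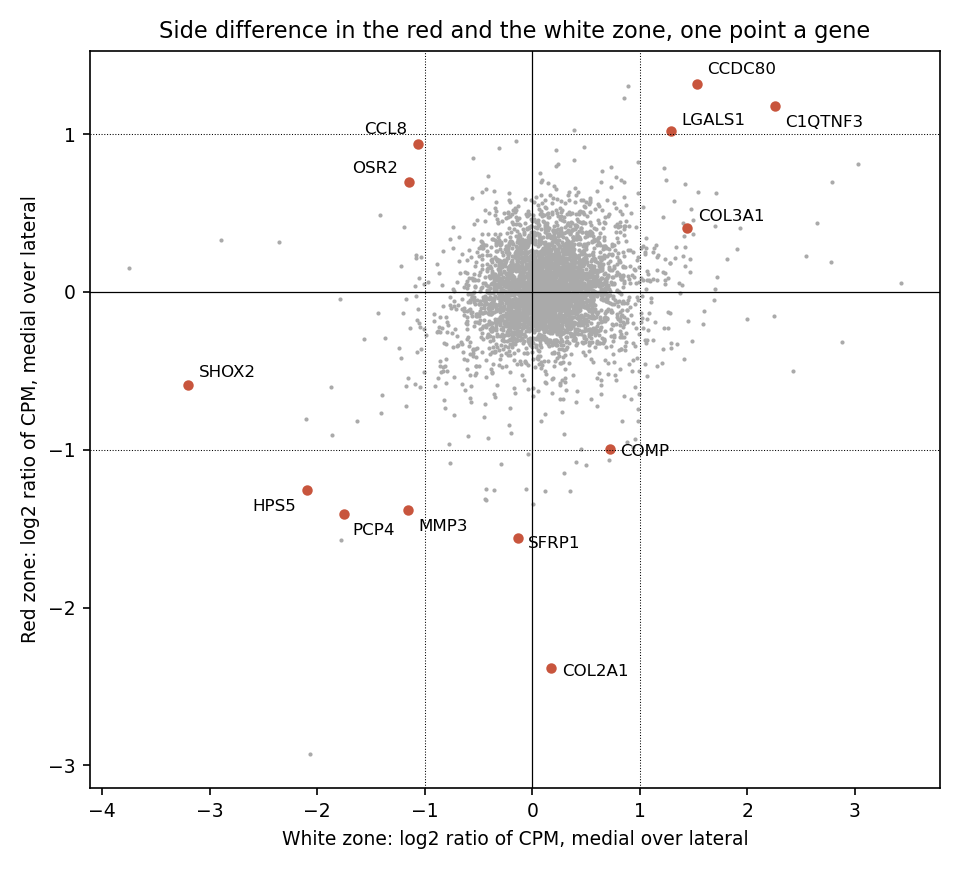
Each point is 1 of 4248 genes, with the log2 ratio of CPM, medial over lateral, of the white zone on the x axis and of the red zone on the y axis; dotted lines mark 2-fold and a named gene is drawn larger and in red. C1QTNF3, CCDC80 and LGALS1 lie beyond 2-fold at the upper right, HPS5, PCP4 and MMP3 at the lower left, and COL2A1 is low in the red zone only.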

How the data were processed

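Single-cell libraries of 4 pig meniscus samples were made with the 10x Genomics 3' kit v3.1, and the authors counted UMIs per gene and barcode with Cell Ranger 6.1.2 on Sscrofa11.1, per the submitters' processing notes. The deposited counts were used as given. Of 21280 features 14811 had a symbol in the files, 694 got one from a reference table and 5775 kept an identifier only. Groups came from the sample titles. Counts of kept barcodes were summed per library and given as CPM, with exact 95% Poisson intervals, exact conditional intervals for ratios and exact Clopper-Pearson intervals for shares. PCR and droplets add error that these intervals do not cover. Cells (10000 counts per cell, log scale, 2000 variable genes, 30 components, 15 neighbours) were clustered by Leiden at resolution 0.5 with scanpy 1.11.5 and named from marker lists. Genes named are the 15 largest ratios each way, 5 per class, 4 per list and a fixed set. The members, lists and rules were chosen with earlier results of these data known. Alternatives varied scaling (edgeR 4.0.16 TMM, DESeq2 1.42.0), the floor, the fold, cell filters, doublets and clustering. Leaving out plasma cells, equal cluster weights and clustering without genes that differ were added after the data were seen. A result on 1 gene is not reported here. Ratios and intervals were tested on simulated Poisson counts, the model that the intervals assume. Such counts could not test the effect of UMIs clustered in single cells or of spread between libraries.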

Additional observations from a re-analysis of the deposited data

Results flagged for a closer look

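In the genes given here the sides differed in opposite directions in the red and the white zone, by 1.5-fold or more in both and by 2-fold or more in 1 zone, which was not tested, as each pair has 1 library a side. OSR2, a zinc finger factor of joint development, had a medial to lateral ratio of 1.623 in the red zone (59.1 CPM in lateral and 95.9 CPM in medial) and of 0.4514 in the white zone (26.5 and 11.9 CPM). The monocyte chemokine CCL8 had a medial to lateral ratio of 1.913 in the red zone (94.6 and 180.9 CPM) and of 0.4788 in the white zone (76.1 and 36.4 CPM).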

How the results depend on the processing

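Leaving out a library was not possible with 1 a side. No paired analysis was possible because each side has a single library and no test was made. The counts of genes 2-fold or more higher in medial red and of genes 2-fold or more higher in lateral red, 22 and 39, were 10 and 25 with a floor of 50 CPM, 1510 and 1522 with no floor and 135 and 137 at 1.5-fold. TMM scaling gave 17 and 38 and DESeq2 size factors 18 and 43. With equal cluster composition, added after the data were seen, the medial count was 14 at resolution 0.5 and 10 at resolution 1.0. That setting turned MZB1 to a medial to lateral ratio of 1.64 at both resolutions, JCHAIN to 1.98 and 1.97 and, at resolution 0.5, TNN to 0.983. POLR1G in fibrochondrocyte-like cells turned to 0.890 with all 4 libraries clustered. The medial to lateral ratio of class shares moved for fibroblast-like cells from 1.85 to 1.71 (resolution 1.0), 1.28 (clustered without genes that differ) and 1.30 (all 4 libraries), for fibrochondrocyte-like cells from 0.578 to 0.408, 0.435 and 0.392, for mural-like cells from 1.09 to 0.861 (resolution 1.0) and 0.853 (all 4), for chondrocyte-like cells from 0.475 to 0.217 (all 4), and for B or plasma cell-like cells from 0.103 to 0.521 (without genes that differ, where they merged with T and NK cells). In each of these the cause was not tested. Depth limits the small classes, where up to 37.4% of genes passed 2-fold.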
